A study of Mus musculus with 8 samples.

Results

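QT7 cells are mouse embryonic stem cells from which, by the design given for the series, every TCF/LEF factor was removed and a single copy of TCF7 was put back. They were compared with the WT line E14TG2a to ask which transcripts stay different when TCF7 is, as titled, the only factor of the family. The comparison used 4 of the 8 libraries of the series, those titled QT7 1 and QT7 2 against WT 1 and WT 2 (n = 2 each). QT7 1 is labelled clone A and QT7 2 clone B, so each library is 1 clone, while WT 1 and WT 2 are labelled biological replicates with no clone named. All groups carry the 129/Ola background, and all were grown for 48 h with 15% serum and LIF, the cytokine that sustains stem cell self-renewal. A stranded mRNA kit was used on 250 ng of RNA per library.

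The titles and the genotype tags do not match. The tag of both QT7 libraries reads TCF7(-/-), TCF7L1(+/-), TCF7L2(-/-), LEF1(-/-), which names TCF7L1 as the factor still present, and the tag of QT7L1, the line titled for TCF7L1, reads TCF7(+/-) with the other 3 genes at -/-. QKO, the cells with no factor, are tagged -/- at all 4 genes. Groups were taken from the titles. QKO and QT7L1 (n = 2 each) enter the model below for the spread of each gene and are given beside the results.

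TCF7, TCF7L1, TCF7L2 and LEF1 are the DNA-binding partners through which beta-catenin, the effector of Wnt signalling, reaches its target genes. Without beta-catenin they recruit TLE corepressors, and TCF7L1 in particular is known as a repressor of pluripotency genes such as Nanog in mouse embryonic stem cells. TCF7 is mostly described as an activating member of the family.

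QT7 differed from WT in 763 of 16515 tested genes (4.62%), of which 391 were higher in QT7 (2.37%) and 372 lower (2.25%). At least 2-fold differences made up 234 of the rises and 221 of the falls. A gene was called at an adjusted p under 0.05 in edgeR's quasi-likelihood test with Benjamini-Hochberg adjustment over all tested genes. The QT7 and WT libraries did not overlap for any of the 763 called genes, against 7859 of all 16515 genes (47.6%). Levels are counts per 1e+06 counts (CPM), scaled between libraries, fold changes are log2 values of QT7 over WT with their standard error (SE), and levels of different genes were not compared. In bulk RNA, fewer cells of a type and less RNA per cell cannot be told apart.

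The count of QT7 against WT calls moved when 1 library was left out. Removing WT replicate 1 gave 52 calls, and there were 341 without WT replicate 2, 390 without QT7 replicate 1 and 2023 without QT7 replicate 2. Leaving out a QKO library gave 448 or 455 calls and leaving out a QT7L1 library gave 330 or 332. The WT and QT7 spread alone, in a fit of the 4 compared libraries, gave 117 calls. QT7 replicates lay further apart than WT replicates: 1326 genes (8.03%) differed more than 2-fold between the QT7 libraries and 693 (4.20%) between the WT libraries. The mitochondrial share of counts was 1.57 and 0.471% in QT7 and 0.818 and 0.435% in WT, and the summed CPM of 5 Y-linked genes was 94.9 and 26.5 in QT7 and 99.0 and 116 in WT. Library sizes were 38.15 and 42.31 in QT7 and 31.57 and 43.36 in WT, in units of 1e+06 counts. The part of these differences in the calls was not tested.

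**Figure D1:**
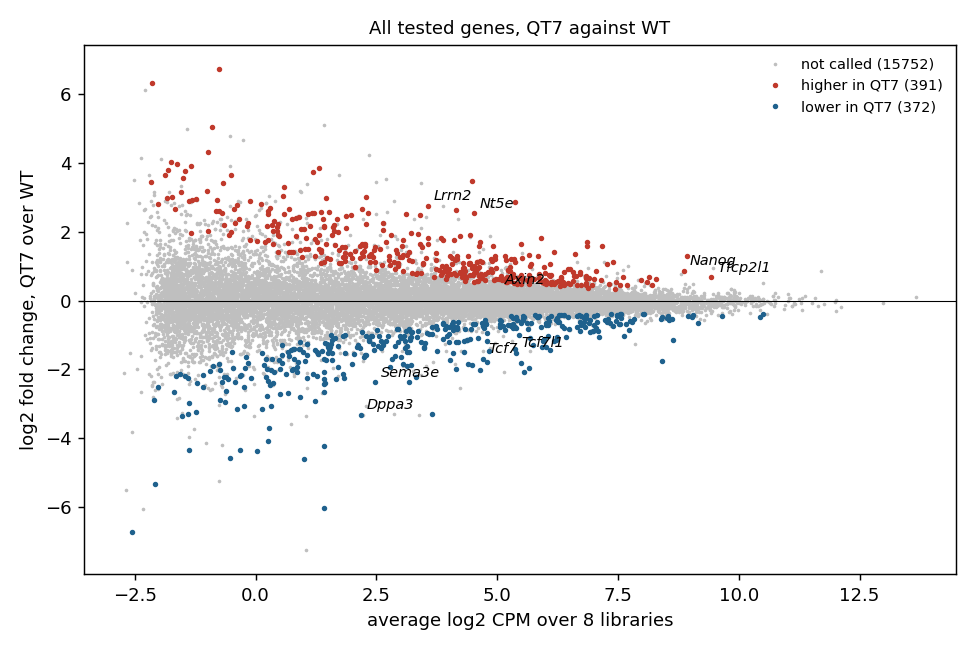
Each point is 1 of the 16515 tested genes, with its average log2 CPM over 8 libraries on the x axis and its log2 fold change of QT7 over WT on the y axis. The 391 genes higher in QT7 and the 372 lower ones are coloured, and Nanog and Tfcp2l1 stand out among the abundant genes that were higher.

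Markers of embryonic stem cells were abundant in every library. The pluripotency factor Pou5f1 had 1251 and 1551 CPM in QT7 and 1471 and 1413 CPM in WT, and its partner Sox2 had 311 and 302 CPM in QT7 and 312 and 298 CPM in WT. The libraries of both groups overlapped for both genes. Fibroblast markers, which feeder cells would bring, summed to 148 and 235 CPM over 15 tested genes in QT7 and to 282 and 207 CPM in WT. Their median log2 fold change was -1.54 (-2.71 without QT7 replicate 2, -0.85 without QT7 replicate 1 and -0.82 without WT replicate 1), 1 of the 15 was called (Thy1, 0.90 ± 0.20, higher; not without WT replicate 1, 0.226) and 14 were not. Of their defining members Lum had 0 counts in all 4 libraries, and Dcn had 0 and 0 counts in QT7 and 3 and 2 in WT. Col1a1 ranged widely, at 2.58 and 13.2 CPM in QT7 and 38.6 and 18.2 CPM in WT. Of the 10 macrophage and blood markers 2 passed the filter on low counts and none was called, and of 8 endothelial markers 7 passed and none was called (edgeR; at an unadjusted p under 0.05 these gave 0 and 1, and with DESeq2 0 and 1). The part of these markers in the results was not tested.

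Of the factor genes themselves, 3 of 4 were lower in QT7 than in WT (2.25% of all genes were lower) and Tcf7l2 was not called. Tcf7l1 (ENSMUSG00000055799, chromosome 6, 72626378 to 72789254 on GRCm38) had 27.4 and 22.4 CPM in QT7 and 73.6 and 68.8 CPM in WT. Its log2 fold change of -1.51 ± 0.16 (edgeR adjusted p = 0.00163) held under each of the 13 alternative settings. Tcf7 (ENSMUSG00000000782, chromosome 11, 52252371 to 52283014) had 16.6 and 20.9 CPM in QT7 and 59.6 and 61.9 CPM in WT. Both QT7 libraries lay far below both WT libraries for each of these genes. For Tcf7 the change was -1.69 ± 0.36 (edgeR adjusted p = 0.0456), and the call ended when any QT7, WT or QT7L1 library was left out (0.0876 to 0.257). Lef1 had 1.33 and 0.920 CPM in QT7 and 6.57 and 2.4 CPM in WT (-1.99 ± 0.45, edgeR adjusted p = 0.0380). That call ended without WT replicate 1 (0.312), in the fit of the 4 compared libraries (0.135) and without any QKO, QT7 or QT7L1 library (0.0639 to 0.0786). Tcf7l2 had 5.84 and 5.27 CPM in QT7 and 8.14 and 6.53 CPM in WT, lower in both QT7 libraries but not past the threshold (-0.40 ± 0.21, edgeR adjusted p = 0.321).

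Against QKO, Tcf7 had 16.6 and 20.9 CPM in QT7 and 7.97 and 19.7 CPM in QKO, where the libraries overlapped (0.44 ± 0.36, edgeR adjusted p = 0.410). Tcf7l1 was lower, with 27.4 and 22.4 CPM in QT7 and 38.3 and 39.1 CPM in QKO (-0.64 ± 0.15, edgeR adjusted p = 0.0137). Counts over a whole gene do not show whether a transcript is full-length, so they do not settle which factor the QT7 cells carry. Axin2, the feedback gene most used to read Wnt signalling, had 19.11 and 33.9 CPM in QT7 and 21.9 and 20.7 CPM in WT. The QT7 libraries lay on either side of the WT libraries, and the difference of 0.32 ± 0.24 did not pass (edgeR adjusted p = 0.525, with a range of 0.0588 to 0.745 over the alternatives). Against QKO, Axin2 was lower, with 19.11 and 33.9 CPM in QT7 and 45.6 and 60.3 CPM in QKO (-1.0 ± 0.24, edgeR adjusted p = 0.0166).

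The 15 largest rises among called genes averaging 2 or more log2 CPM ran from 1.83 to 3.49 on the log2 scale. Absence of overlap between the QT7 and WT libraries was part of the choice of these genes. Lrrn2, a leucine-rich repeat protein of neurons (ENSMUSG00000026443, chromosome 1, 132880273 to 132940005), had 20.7 and 13.9 CPM in QT7 and 2.88 and 2.24 CPM in WT (2.76 ± 0.26, edgeR adjusted p = 0.00163). Nt5e, the ectonucleotidase CD73 that makes adenosine outside the cell (ENSMUSG00000032420, chromosome 9, 88327197 to 88372092), had 29.3 and 27.1 CPM in QT7 and 5.98 and 3.76 CPM in WT (2.55 ± 0.28, edgeR adjusted p = 0.00376). Prss35, a serine protease homologue, had 22.8 and 16.9 CPM in QT7 and 4.44 and 6.64 CPM in WT (1.83 ± 0.23, edgeR adjusted p = 0.00410). Both QT7 libraries stood well above both WT libraries for these genes, and they were the 3 of the 15 whose call held under each of the 13 alternatives.

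Enzymes and transporters made up part of the remaining rises. Hal, the first enzyme of histidine breakdown, had 7.53 and 6.44 CPM in QT7 and 0.970 and 1.90 CPM in WT (2.25 ± 0.31). Ptgs1, the prostaglandin synthase COX-1, had 37.3 and 16.0 CPM in QT7 and 4.82 and 3.76 CPM in WT (2.64 ± 0.45). Slc1a1, a glutamate transporter, had 18.0 and 7.73 CPM in QT7 and 2.75 and 3.36 CPM in WT (2.07 ± 0.36). For Ptgs1 and Slc1a1, QT7 replicate 1 held more than double the level of replicate 2.

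Further genes among the largest rises were uneven between the QT7 clones. Dazl, an RNA-binding protein needed for germ cells, had 30.9 and 11.1 CPM in QT7 and 2.79 and 4.56 CPM in WT (2.50 ± 0.50). Rec114, which acts in making the DNA breaks of meiosis, had 20.1 and 5.41 CPM in QT7 and 1.75 and 2.58 CPM in WT (2.54 ± 0.55). Tuba3a, an alpha-tubulin with a near-identical copy whose reads the counting could split, had 114 and 61.1 CPM in QT7 and 6.86 and 17.1 CPM in WT (2.85 ± 0.55). The largest rise of the set, Arl14epl, had 79.0 and 21.4 CPM in QT7 and 4.51 and 4.42 CPM in WT (3.49 ± 0.65). QT7 replicate 1 was the higher QT7 library in these 4 genes and in 14 of the 15 rises, Myh13 being the exception. The remaining rises were Zfp264, annotated as a transcribed pseudogene, Klhdc7a, Rbm44, Zfp992 and the myosin heavy chain Myh13.

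In the fit of the 4 compared libraries, 5 of these 15 rises were called. With all groups in the fit, 13 were still called without QT7 replicate 1 and 14 without QT7 replicate 2, against 8 without WT replicate 2 and 3 without WT replicate 1 (adjusted p of the 12 lost calls 0.0508 to 0.322). Leaving out either QKO library gave 8 and either QT7L1 library 9. Against QKO, 5 of the 15 were called (background 26.9%), namely Rec114, Slc1a1, Klhdc7a, Rbm44 and Zfp992. Klhdc7a, for example, had 21.8 and 16.9 CPM in QT7 and 2.64 and 2.33 CPM in QKO (2.96 ± 0.30, edgeR adjusted p = 0.000769). Lrrn2 had 20.7 and 13.9 CPM in QT7 and 22.6 and 17 CPM in QKO, where the libraries overlapped (-0.19 ± 0.24, edgeR adjusted p = 0.579). Both comparisons use the QT7 libraries, so their values are given side by side and nothing is read from their sharing genes.

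The 15 largest falls, chosen by the same rule as the rises, ran from -3.32 to -1.83. Dppa3, also called Stella, a maternal factor and marker of naive cells (ENSMUSG00000046323, chromosome 6, 122626410 to 122630272), had 1.97 and 0.759 CPM in QT7 and 15.5 and 11.7 CPM in WT (-3.32 ± 0.64, edgeR adjusted p = 0.0339). Its call ended without either WT, QKO or QT7 library (0.0562 to 0.189). Sema3e, a secreted semaphorin that signals through plexin D1 (ENSMUSG00000063531, chromosome 5, 14025276 to 14256689), had 2.78 and 2.60 CPM in QT7 and 17.7 and 10.3 CPM in WT (-2.37 ± 0.29, edgeR adjusted p = 0.00376). Atp10a, a phospholipid flippase, had 3.01 and 4.69 CPM in QT7 and 20.3 and 19.6 CPM in WT (-2.37 ± 0.30, edgeR adjusted p = 0.00491). The QT7 libraries lay below the WT libraries by a wide margin in all 3 genes.

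Further genes among the largest falls had different roles. Frem2, an extracellular matrix protein of epithelia, had 7.58 and 12.7 CPM in QT7 and 34.2 and 45.7 CPM in WT (-1.98 ± 0.24). Abca1, a cholesterol exporter, had 7.02 and 12.4 CPM in QT7 and 34.7 and 36.3 CPM in WT (-1.87 ± 0.24). In both the groups stood clearly apart, and the WT libraries of Abca1 were close to each other. Eif4g3, a scaffold of translation initiation, had 17 and 27.8 CPM in QT7 and 95.1 and 78.8 CPM in WT (-1.96 ± 0.23). Klhl13, an adaptor of a ubiquitin ligase, had 27.1 and 25.5 CPM in QT7 and 111 and 109 CPM in WT (-2.07 ± 0.40). Both pairs of groups were separated. Other falls were Lemd1, Miip, the neural filament gene Nes, Frmd4b, the ephrin Efnb2, the zinc finger gene Zfp869 and the epithelial splicing regulator Esrp1.

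Sema3e, Atp10a, Frem2 and Zfp869 held their call under each of the 13 alternatives. They were also the 4 of the 15 falls that were called without WT replicate 1 (adjusted p of the 11 lost calls 0.0508 to 0.242). Without WT replicate 2 or QT7 replicate 2, 11 were called in each case, and without QT7 replicate 1, 8 were. The fit of the 4 compared libraries called 12. Against QKO, 8 of the 15 were called (background 26.9%). Among these only Frem2 was higher in QT7, with 7.58 and 12.7 CPM in QT7 and 4.0 and 4.68 CPM in QKO (1.22 ± 0.25, edgeR adjusted p = 0.00815). The others were lower in QT7 than in QKO, among them Lemd1, Nes, Efnb2, Abca1 and Zfp869. Eif4g3, for example, had 17 and 27.8 CPM in QT7 and 56.3 and 44.2 CPM in QKO (-1.17 ± 0.22, edgeR adjusted p = 0.00683). Sema3e had 2.78 and 2.60 CPM in QT7 and 2.61 and 2.30 CPM in QKO (0.13 ± 0.29, edgeR adjusted p = 0.771). None of the 30 genes was called between QT7 and QT7L1, a contrast in which edgeR called 1 gene of 16515 (0.00606%). That contrast had 1830 genes at an unadjusted p under 0.05 and 236 calls with DESeq2.

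**Figure D2:**
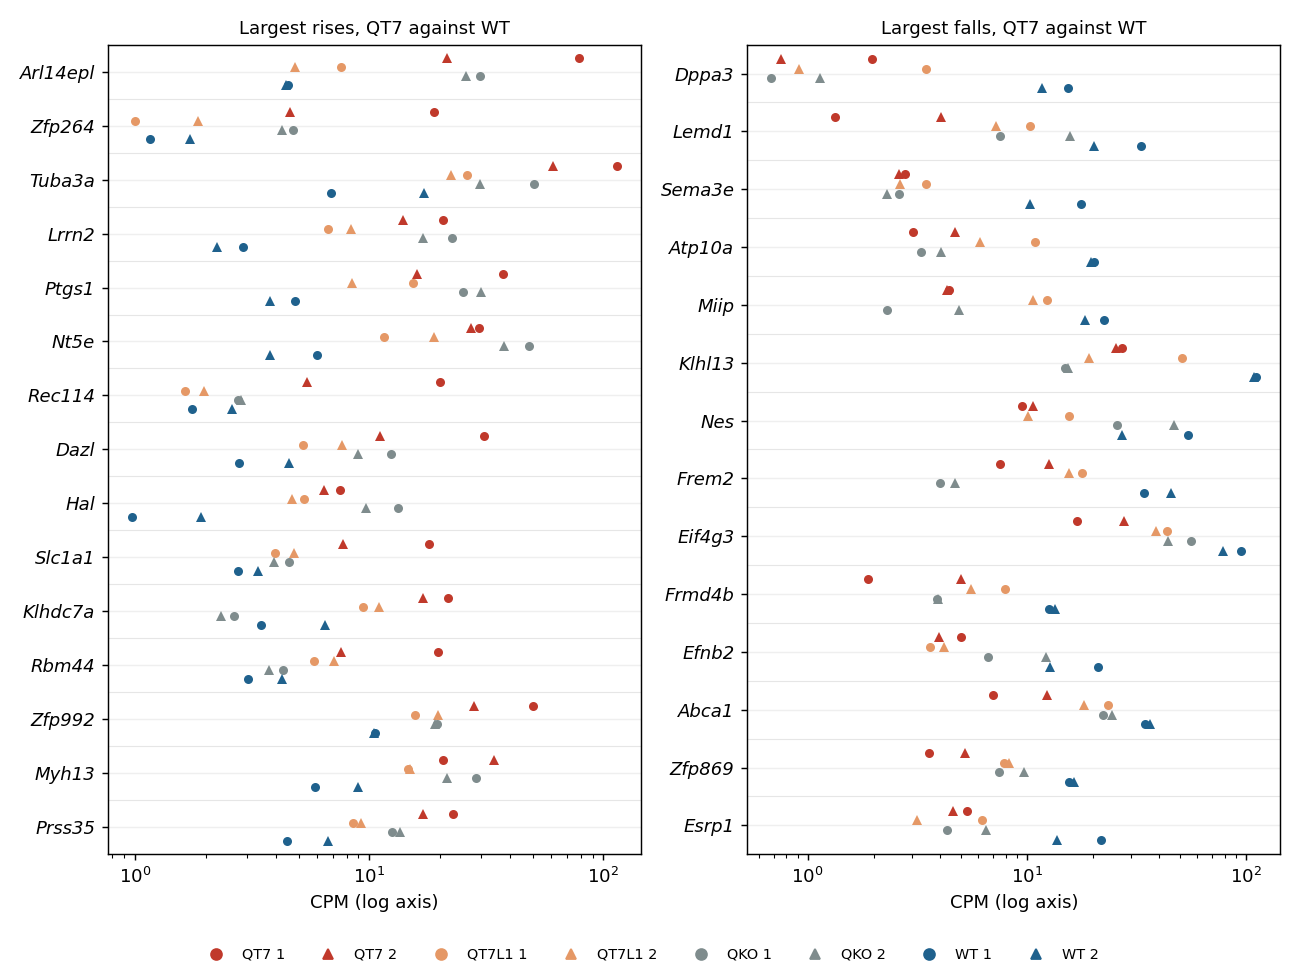
Level in CPM on a log axis of the 15 genes with the largest rises (left) and 14 of the 15 with the largest falls (right) in QT7 against WT, with 1 point per library of QT7, QT7L1, QKO and WT. Absence of overlap between QT7 and WT was part of the rule that chose the genes. The circle of QT7 1 lies to the right of the triangle of QT7 2 in 14 of the 15 rises.

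Promoter windows of the named genes were searched for the letters that TCF/LEF proteins are known to bind. RefSeq windows on GRCm38.p6, from 250 bases before to 50 bases after the gene start, were found for 11 of the 15 rises and 12 of the 15 falls. They were searched on both strands for the letters CTTTGAA, the letters CTTTGAT, the letters CTTTGTA and the letters CTTTGTT. The windows of Hal and Prss35 among the rises and of Sema3e, Zfp869, Frmd4b and Klhl13 among the falls held a match. Of all 32851 windows 16.9% did. Counted per gene, 13.7% of the 11554 tested genes with a window held one, against 46 of 275 called higher genes (16.7%) and 40 of 266 called lower genes (15.0%). Printed here are those with a match whose gene kept its call under at least 12 of the 13 alternatives, given so that the position of the letters can be seen. Each is printed from 5′ to 3′ on the strand of the gene, with the match in capitals.
Hal, chr10:93488518-93488817, plus strand: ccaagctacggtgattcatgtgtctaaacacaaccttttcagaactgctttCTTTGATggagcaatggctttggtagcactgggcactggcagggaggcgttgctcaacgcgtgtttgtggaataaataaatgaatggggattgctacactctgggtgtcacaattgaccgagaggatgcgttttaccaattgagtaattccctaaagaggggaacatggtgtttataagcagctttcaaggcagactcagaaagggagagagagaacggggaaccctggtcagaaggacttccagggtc
Prss35, chr9:86743383-86743682, plus strand: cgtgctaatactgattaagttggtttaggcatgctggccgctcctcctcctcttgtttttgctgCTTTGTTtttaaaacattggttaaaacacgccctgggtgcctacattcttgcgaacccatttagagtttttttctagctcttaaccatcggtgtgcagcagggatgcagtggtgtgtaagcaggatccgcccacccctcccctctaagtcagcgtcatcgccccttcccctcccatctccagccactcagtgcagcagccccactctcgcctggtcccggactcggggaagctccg
Sema3e, chr5:14025026-14025325, plus strand: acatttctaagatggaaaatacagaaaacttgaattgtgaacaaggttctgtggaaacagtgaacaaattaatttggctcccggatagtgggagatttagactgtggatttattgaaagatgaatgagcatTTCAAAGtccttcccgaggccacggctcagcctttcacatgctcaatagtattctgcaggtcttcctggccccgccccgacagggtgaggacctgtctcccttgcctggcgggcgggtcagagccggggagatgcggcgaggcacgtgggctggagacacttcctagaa
Zfp869, chr8:69716853-69717152, minus strand: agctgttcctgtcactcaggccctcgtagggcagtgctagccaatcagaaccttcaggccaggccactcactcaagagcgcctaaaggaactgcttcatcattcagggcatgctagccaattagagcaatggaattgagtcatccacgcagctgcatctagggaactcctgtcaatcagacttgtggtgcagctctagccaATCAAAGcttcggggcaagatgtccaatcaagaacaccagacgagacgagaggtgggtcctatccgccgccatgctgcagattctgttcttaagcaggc
The match of Hal starts 199 bases before the gene start and that of Prss35 starts 186 bases before it, both on the strand shown. In Sema3e and Zfp869 the letters are on the opposite strand, 119 and 49 bases before the start, so the capitals show their reverse complement. The RefSeq start of Zfp869 lies outside the span of that gene in GENCODE M21 (69706332 to 69710724). A match is a description of these letters and not of binding.

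More naive pluripotency genes rose than fell. Of 22 tested members, 5 were higher in QT7 (22.7%), 1 was lower (4.55%) and 16 were not called. Over all genes 2.37% were higher and 2.25% lower. The median log2 fold change was 0.17 (0.28 without QT7 replicate 1) against 0.01 over all genes. The summed CPM of the list was 8515 and 8846 in QT7 and 7750 and 7605 in WT. It was 10468 and 9950 in QKO and 9078 and 8816 in QT7L1. Nanog (ENSMUSG00000012396, chromosome 6, 122707489 to 122714633), a core factor of the network, had 583 and 504 CPM in QT7 and 308 and 288 CPM in WT. Both QT7 libraries were above both WT libraries, at means of 544 ± 55.7 CPM in QT7 and 298 ± 14.1 CPM in WT (SD, n = 2 each). The log2 fold change was 0.87 ± 0.10 (edgeR adjusted p = 0.00320) and held under each of the 13 alternatives. Tbx3, a factor that sustains self-renewal, had 227 and 187 CPM in QT7 and 92.6 and 97.1 CPM in WT (1.12 ± 0.14). Tfcp2l1, another factor of the naive network, had 821 and 817 CPM in QT7 and 502 and 521 CPM in WT (0.68 ± 0.10). QT7 lay clear of WT for both genes, and the QT7 clones nearly coincided for Tfcp2l1.

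Prdm14, a repressor of epiblast differentiation, had 25.6 and 18.1 CPM in QT7 and 12.8 and 11.6 CPM in WT (0.84 ± 0.19), and the surface protein Pecam1 had 153 and 111 CPM in QT7 and 58.5 and 80.9 CPM in WT (0.92 ± 0.20). Dppa3 was the member that fell. Other members of the network were close to WT: Esrrb had 936 and 780 CPM in QT7 and 779 and 806 CPM in WT (0.11 ± 0.11), and Klf4 had 225 and 316 CPM in QT7 and 220 and 249 CPM in WT (0.21 ± 0.17). Without WT replicate 1 only Nanog of the 6 calls stayed (others 0.0535 to 0.256), and without QT7 replicate 1 Nanog, Tbx3 and Tfcp2l1 did (others 0.0600 to 0.147). Of the 16 general pluripotency genes 1 was called (6.25%, against 4.62% of all genes). It was the RNA-binding ubiquitin ligase Trim71, with 208 and 212 CPM in QT7 and 286 and 267 CPM in WT (-0.40 ± 0.09). That call ended without QT7 replicate 1, WT replicate 1 or WT replicate 2 (0.0704 to 0.222).

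Genes of the formative and primed epiblast, the later states of pluripotency, were lower where they were called. Of 23 tested, 5 fell (21.7%, against 2.25% of all genes) and 18 were not called. The median was -0.29 (-0.99 without QT7 replicate 1, -0.49 without WT replicate 2 and -0.18 without WT replicate 1). No rise was called (edgeR; 1 had an unadjusted p under 0.05 and 0 rose with DESeq2). Lefty1, a secreted inhibitor of Nodal (ENSMUSG00000038793, chromosome 1, 180935022 to 180938400), had 54.8 and 58.0 CPM in QT7 and 108 and 145 CPM in WT. The QT7 clones were nearly equal and well below both WT libraries (-1.17 ± 0.15, edgeR adjusted p = 0.00472), and the call held under each of the 13 alternatives. Lefty1 also had 21.6 and 17.2 CPM in QKO, below QT7 (1.54 ± 0.16, edgeR adjusted p = 0.000769). Dnmt3b, a de novo DNA methyltransferase, had 152 and 139 CPM in QT7 and 335 and 261 CPM in WT (-1.04 ± 0.16). The POU factor Pou3f1 had 6.66 and 8.35 CPM in QT7 and 20.3 and 14.8 CPM in WT (-1.22 ± 0.21).

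Pim2, a kinase, had 17.3 and 13.9 CPM in QT7 and 71.9 and 35.5 CPM in WT (-1.78 ± 0.34), and N-cadherin, Cdh2, had 1.48 and 1.63 CPM in QT7 and 9.30 and 4.33 CPM in WT (-2.12 ± 0.37). For both genes WT replicate 1 was about double WT replicate 2. Without WT replicate 1, Lefty1 alone of the 5 stayed called (others 0.0741 to 0.135), and without QT7 replicate 1 Lefty1, Dnmt3b and Pou3f1 did. The primitive streak gene T was not called, at 0.357 and 0.483 CPM in QT7 and 9.70 and 0.680 CPM in WT (-3.60 ± 1.12, edgeR adjusted p = 0.133). Only WT replicate 1 was high for it. Of the other streak genes Eomes was higher, at 10.4 and 9.48 CPM in QT7 and 6.35 and 4.65 CPM in WT (0.86 ± 0.20, not called without QT7 replicate 1 or either WT replicate, 0.110 to 0.207). Of 15 streak genes 1 rose, Eomes, and 1 fell, Lefty1 (6.67% each way). Of 12 neural genes 2 fell (16.7%), Nes and Sox11, and of 23 endoderm genes 2 rose (8.70%). Over all genes 2.37% rose and 2.25% fell. Sparc, a matrix glycoprotein, had 671 and 528 CPM in QT7 and 217 and 267 CPM in WT (1.31 ± 0.14), and the hepatic and visceral endoderm factor Hnf4a had 37.0 and 25.5 CPM in QT7 and 7.29 and 11.1 CPM in WT (1.76 ± 0.32). The call of Nes ended without WT replicate 1 or either QT7 replicate, that of Hnf4a without WT replicate 1 or QT7 replicate 1, and that of Sox11 without WT replicate 1. In the fit of the 4 compared libraries Nes and Sox11 were not called (edgeR adjusted p = 0.0642 and 0.0511). The endoderm median was -0.08, with -0.49 without WT replicate 1 and 0.77 without WT replicate 2.

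**Figure D3:**
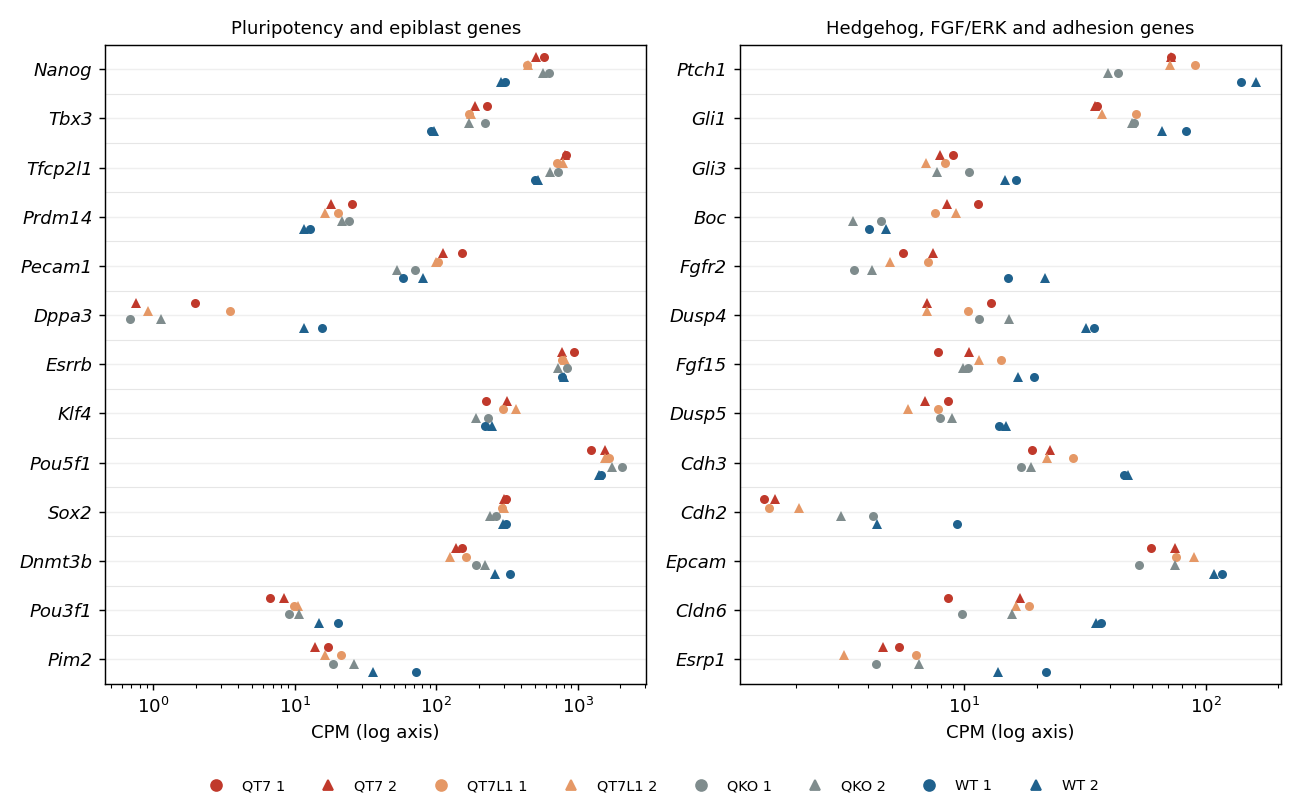
Level in CPM on a log axis of pluripotency and epiblast genes (left) and of Hedgehog, FGF/ERK and adhesion genes (right), with 1 point per library of QT7, QT7L1, QKO and WT. The QT7 points of Nanog, Tbx3 and Tfcp2l1 lie to the right of WT and those of Dnmt3b, Pou3f1 and Ptch1 to the left, while Sox2 and Klf4 overlap between QT7 and WT.

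Wnt feedback and target genes gave 1 rise, 1 fall and 22 not called of 24. Each direction made up 4.17%, against 2.37% higher and 2.25% lower over all genes. The summed CPM of the list was 513 and 579 in QT7, 698 and 610 in WT and 770 and 874 in QKO. At an unadjusted p under 0.05 in edgeR, 3 were higher and 7 lower, and DESeq2 called 2 higher and 5 lower. The median was -0.15 (0.00 without WT replicate 1 and -0.27 without QT7 replicate 2). The receptor Lrp4 had 24.8 and 19.4 CPM in QT7 and 12.3 and 13.4 CPM in WT (0.78 ± 0.17), and the receptor Fzd7 had 69.9 and 72.2 CPM in QT7 and 93.9 and 97.0 CPM in WT (-0.43 ± 0.09). Their groups did not overlap, but neither call stayed without QT7 replicate 1, WT replicate 1 or WT replicate 2 (0.105 to 0.226). The target Sp5 had 1.56 and 1.13 CPM in QT7 and 4.60 and 2.4 CPM in WT (-1.38 ± 0.38, edgeR adjusted p = 0.0691). Another target, Nkd1, had 3.85 and 5.91 CPM in QT7 and 3.35 and 6.30 CPM in WT (0.01 ± 0.36), where the groups overlapped.

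Among Wnt ligands, receptors and modulators, 4 of 33 were higher (12.1%), 3 lower (9.09%) and 26 not called. Over all genes 2.37% were higher and 2.25% lower. Porcn, the acyltransferase that lipidates Wnt proteins for secretion, had 40.4 and 44.6 CPM in QT7 and 21.7 and 24.4 CPM in WT (0.88 ± 0.13). The ligand Wnt5b had 4.49 and 4.09 CPM in QT7 and 1.28 and 0.998 CPM in WT (1.92 ± 0.27), and the receptor Ror2, which binds Wnt5a, had 34.1 and 37.4 CPM in QT7 and 16.9 and 21.1 CPM in WT (0.91 ± 0.14). All 3 had tight QT7 clones above WT. Wnt6 was the other rise (1.02 ± 0.25), and the falls were the antagonist Sfrp2 (-1.16 ± 0.23), the receptor Fzd2 (-0.87 ± 0.19) and Wnt4 (-2.03 ± 0.48). None of the 7 calls stayed without WT replicate 1 (0.0508 to 0.327), while 5 stayed without QT7 replicate 1 and 6 without QT7 replicate 2.

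Of 22 genes of the beta-catenin complex and its nuclear partners, 1 was called (4.55%, against 4.62% of all genes). Tle4, a corepressor that TCF/LEF proteins recruit, had 70.8 and 79.9 CPM in QT7 and 154 and 126 CPM in WT (-0.89 ± 0.12, edgeR adjusted p = 0.00472). The groups stood apart, and the call held under each of the 13 alternatives. Beta-catenin itself, Ctnnb1, had 969 and 909 CPM in QT7 and 889 and 929 CPM in WT (0.05 ± 0.09), with overlapping libraries.

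Of 15 Hedgehog pathway genes, 4 fell (26.7%), 1 rose (6.67%) and 10 were not called, against 2.25% lower and 2.37% higher over all genes. The median was -0.20 (-0.08 without WT replicate 2 and -0.34 without QT7 replicate 2). Ptch1, the Hedgehog receptor and a target of the pathway, had 72.1 and 71.5 CPM in QT7 and 140 and 161 CPM in WT (-1.07 ± 0.13, edgeR adjusted p = 0.00355), and held under each of the 13 alternatives. The target and effector Gli1 had 35.3 and 34.8 CPM in QT7 and 83.1 and 66.0 CPM in WT (-1.09 ± 0.16). The QT7 clones were almost identical for both genes and WT was about double. The transcription factor Gli3 (-0.88 ± 0.20) also fell, and the co-receptor Boc had 11.4 and 8.46 CPM in QT7 and 4.01 and 4.74 CPM in WT (1.18 ± 0.24). Without WT replicate 1 the call of Ptch1 alone stayed (others 0.0756 to 0.242). Without WT replicate 2 or QT7 replicate 1 those of Ptch1 and Gli1 did (others 0.0656 to 0.102).

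Of 24 FGF and ERK genes, 5 fell (20.8%, against 2.25% of all genes) and 19 were not called, with a median of -0.24. No rise was called (edgeR; 1 had an unadjusted p under 0.05 and 0 rose with DESeq2). In the fit of the 4 compared libraries none of the 5 was called (edgeR adjusted p = 0.0538 to 0.100). The receptor Fgfr2 had 5.54 and 7.38 CPM in QT7 and 15.2 and 21.5 CPM in WT (-1.51 ± 0.26). The ERK phosphatase Dusp4 had 12.8 and 6.97 CPM in QT7 and 34.3 and 31.9 CPM in WT (-1.74 ± 0.30), and Dusp5 had 8.55 and 6.88 CPM in QT7 and 13.9 and 14.9 CPM in WT (-0.90 ± 0.20). QT7 was below WT throughout, with the Dusp4 clones further apart than the others. The ligand Fgf15 (-0.98 ± 0.20) and Lmna (-0.64 ± 0.14), a nuclear lamin gene that was counted with this list, completed the falls. The feedback inhibitor Spry4 had 351 and 377 CPM in QT7 and 346 and 354 CPM in WT (0.06 ± 0.16). Without WT replicate 2 none of the 5 calls stayed (0.0545 to 0.140), and without WT replicate 1 Fgfr2 alone did.

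Other signalling lists held 1 to 3 calls each, beside 2.37% of all genes called higher and 2.25% lower. The shares were 3.85% higher for BMP, 9.09% lower for Nodal and 4.76% each way for LIF. They were 8.33% lower for the MYC family and 20% lower for immediate early genes. The BMP target Id3, an inhibitor of differentiation factors, had 37.3 and 42.7 CPM in QT7 and 20.3 and 14.4 CPM in WT (1.21 ± 0.16, edgeR adjusted p = 0.00492) and was the 1 call among 26 BMP genes. The Nodal list gave 2 falls of 22, Lefty1 and Skil, a negative regulator of SMAD signalling (-0.90 ± 0.15, not called without WT replicate 1, 0.0826, or 2, 0.0594). The LIF list gave 1 rise, Tfcp2l1, and 1 fall of 21, the LIF receptor Lifr, which had 86.5 and 77.2 CPM in QT7 and 112 and 117 CPM in WT (-0.49 ± 0.11). Without WT replicate 1 neither LIF call stayed (0.0756 and 0.160), and without WT replicate 2 or QT7 replicate 2 that of Lifr ended (0.129 and 0.0553). Mycn, a MYC family factor, had 103 and 101 CPM in QT7 and 247 and 182 CPM in WT (-1.07 ± 0.14, edgeR adjusted p = 0.00476) and held under each of the 13 alternatives. Of 15 immediate early genes 3 fell, Fosl1, Klf6 and Srf, and none of these calls stayed without WT replicate 1 (0.163 to 0.229).

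Of 22 cadherin and epithelial-mesenchymal genes 6 fell (27.3%), 1 rose (4.55%) and 15 were not called, against 2.25% lower and 2.37% higher over all genes. P-cadherin, Cdh3, had 19 and 22.7 CPM in QT7 and 46.0 and 47.5 CPM in WT (-1.16 ± 0.15, edgeR adjusted p = 0.00492), which held under each of the 13 alternatives. The adhesion molecule Epcam had 59.3 and 74.7 CPM in QT7 and 116 and 108 CPM in WT (-0.74 ± 0.17), and the tight junction protein Cldn6 had 8.52 and 17.1 CPM in QT7 and 36.8 and 35.1 CPM in WT (-1.49 ± 0.32). QT7 replicate 1 was the lowest library of these 4 for all 3 genes. Cldn7, Cdh2 and Esrp1 also fell, and the intermediate filament gene Vim had 358 and 317 CPM in QT7 and 256 and 181 CPM in WT (0.63 ± 0.15). E-cadherin, Cdh1, had 465 and 494 CPM in QT7 and 571 and 623 CPM in WT (-0.32 ± 0.09, edgeR adjusted p = 0.0832). Without QT7 replicate 1 only the call of Cdh3 stayed (others 0.0526 to 0.179), and without WT replicate 1 those of Cdh3 and Vim did.

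Guidance molecules gave 4 falls of 39 (10.3%, against 2.25% of all genes), with 35 not called and a median of -0.24 (-0.09 without QT7 replicate 2). No rise was called (edgeR; 4 had an unadjusted p under 0.05 and 0 rose with DESeq2). Sema6a, a transmembrane semaphorin, had 0.612 and 0.322 CPM in QT7 and 12.1 and 5.31 CPM in WT (-4.22 ± 0.52, edgeR adjusted p = 0.00472). Both QT7 clones were near 0, as was QKO at 1.02 and 0.499 CPM. Efnb2, a ligand of EphB receptors, had 5.03 and 3.98 CPM in QT7 and 21.2 and 12.8 CPM in WT (-1.91 ± 0.33), and Sema5a was the remaining fall beside Sema3e (-1.52 ± 0.33). The calls of Sema3e and Sema6a held under each of the 13 alternatives, while Efnb2 and Sema5a lost theirs without WT replicate 1 (0.120 and 0.248) or QT7 replicate 1 (0.0505 and 0.101).

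Genes of the 2-cell-like state, a rare state of cultured stem cells that expresses genes of the early embryo, had a higher share of rises than any other list described here. Of 18 tested, 9 rose (50%, against 2.37% of all genes), none fell and 9 were not called, with a median of 2.50. In edgeR 17 rises and 0 falls had an unadjusted p under 0.05, and DESeq2 called 12 rises and 0 falls. In the fit of the 4 compared libraries none of the 9 was called (edgeR adjusted p = 0.0641 to 0.126). Levels were low. Zscan4f, a telomere-associated factor of that state, had 5.28 and 7.20 CPM in QT7 and 0.595 and 2.04 CPM in WT (2.21 ± 0.52, edgeR adjusted p = 0.0485). Usp17le, a deubiquitinase, had 2.63 and 2.05 CPM in QT7 and 0.188 and 0.499 CPM in WT (2.70 ± 0.44, edgeR adjusted p = 0.0118). WT replicate 1 was the lowest of the 4 libraries for both. The Zscan4 and Usp17 genes have near-identical copies between which reads could be split, so the members are not independent. The mean centred log2 CPM of the list was 1.39 and 1.38 in QT7, 1.39 and 0.61 in QKO, -1.28 and -1.54 in QT7L1, and -1.56 and -0.39 in WT. Without WT replicate 1 none of the 9 calls stayed (0.0947 to 0.292), and without QT7 replicate 1, 4 did.

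Germline and meiosis genes gave 5 rises (18.5%), 2 falls (7.41%) and 20 not called of 27, against 2.37% higher and 2.25% lower over all genes. The median was 0.48 (0.81 without WT replicate 2). Mael, a piRNA pathway protein, had 15.5 and 15.5 CPM in QT7 and 3.51 and 6.35 CPM in WT (1.64 ± 0.25, edgeR adjusted p = 0.00904). Smc1b, a cohesin subunit of meiosis, had 23.3 and 13.8 CPM in QT7 and 4.44 and 7.35 CPM in WT (1.64 ± 0.32). The receptor Kit had 113 and 74.7 CPM in QT7 and 39.9 and 49.1 CPM in WT (1.07 ± 0.20). QT7 was above WT in each, with equal clones for Mael. Tex19.1 (0.67 ± 0.14) and Dazl were the other rises, and the Tudor domain genes Tdrd12 (-1.02 ± 0.23) and Tdrd1 (-1.54 ± 0.36) fell. None of the 7 calls stayed without WT replicate 1 (0.0535 to 0.272), and 3 stayed without QT7 replicate 1. Asz1, which did not pass the filter on low counts, had 252 and 5 counts in QT7 and 0 and 4 in WT, so it was present in 1 clone.

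Of 39 imprinted genes, 6 fell (15.4%), 1 rose (2.56%) and 32 were not called, against 2.25% lower and 2.37% higher over all genes. Peg10, a retrotransposon-derived gene of the placenta, had 289 and 291 CPM in QT7 and 653 and 626 CPM in WT (-1.14 ± 0.21), and Sfmbt2, a Polycomb protein, had 39.9 and 37.6 CPM in QT7 and 106 and 91.3 CPM in WT (-1.35 ± 0.29). The QT7 clones nearly coincided for both. Peg3, Phlda2, Gnas and Magel2 also fell, and Dio3, which inactivates thyroid hormone, had 2.09 and 2.37 CPM in QT7 and 1.03 and 0.567 CPM in WT (1.50 ± 0.33). None of the 7 calls stayed without WT replicate 1 (0.0789 to 0.312), and Peg3 alone stayed without QT7 replicate 1 or WT replicate 2. Trophoblast genes gave 3 rises (Elf3, Tfap2a and Eomes), 1 fall (Peg10) and 16 not called of 20, with none called without WT replicate 1 (0.0756 to 0.179).

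**Figure D4:**
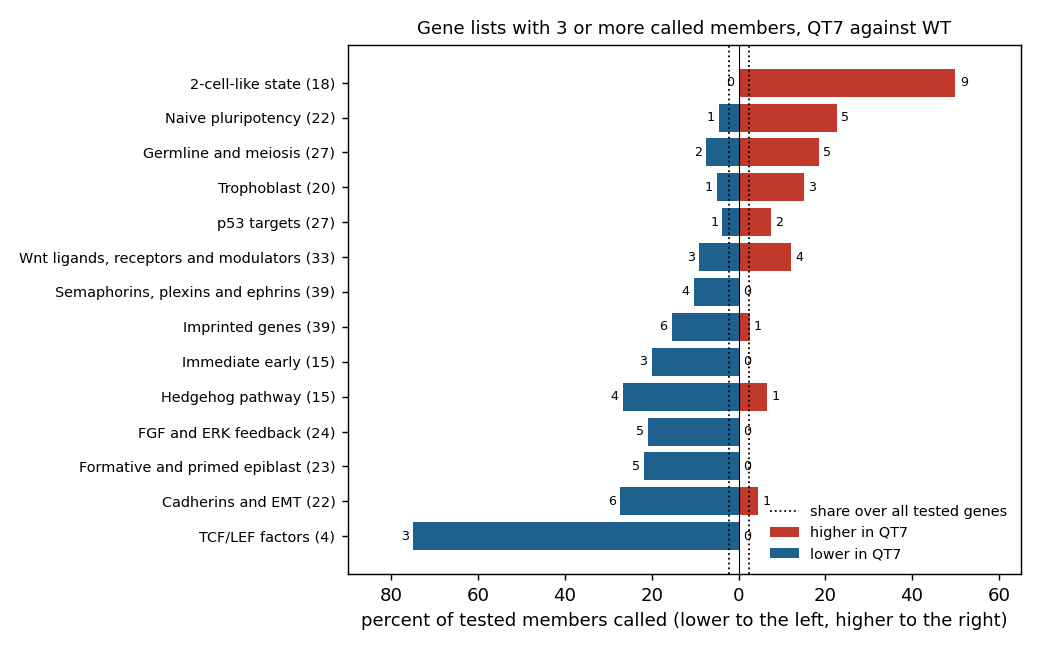
Percent of the tested members of each list that were called higher (bars to the right) or lower (bars to the left) in QT7 against WT, for lists with at least 3 called members, with the number called beside each bar and the number tested in brackets. Dotted lines mark 2.37% higher and 2.25% lower over all tested genes. The 2-cell-like list reaches furthest to the right with 9 of 18. The TCF/LEF factors, the genes altered by the design itself, reach furthest to the left with 3 of 4.

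Metabolic and stress lists held few calls, except for the p53 targets (7.41% higher and 3.70% lower, against 2.37% and 2.25% over all genes). Of 46 genes of glycolysis and the hypoxia response 1 fell, the hexokinase Hk2 (-0.46 ± 0.10, not called without QT7 replicate 1 or either WT replicate, 0.0535 to 0.177), 45 were not called and the median was -0.02. Without QT7 replicate 2 this list had 1 rise and 8 falls and a median of -0.22, and without QT7 replicate 1 no call and a median of 0.13. Slc2a3, a glucose transporter, had 1616 and 1549 CPM in QT7 and 1496 and 1865 CPM in WT (-0.09 ± 0.11), with overlapping libraries. The same list had a median of 0.95 in QT7 over QKO, a contrast that shares the QT7 libraries. Of 27 p53 targets 2 rose (Dglucy and Sesn1), 1 fell (Gadd45a) and 24 were not called, and none of these calls stayed without WT replicate 1 (0.120 to 0.214). The ATF4 list, of which 20 of 24 members had a fold below 0, had a median of -0.20. That median was -0.48 without QT7 replicate 2 and -0.004 without QT7 replicate 1. Of 24 cholesterol genes 22 had a fold below 0, and the median was -0.19 (-0.41 without QT7 replicate 2 and -0.08 without QT7 replicate 1). With all libraries, no member was called among 33 cell cycle, 24 cholesterol, 24 ATF4, 34 respiratory chain, 16 mesoderm or 12 Hox genes (edgeR). At an unadjusted p under 0.05 these lists held 2, 5, 2, 5, 5 and 5 genes, and with DESeq2 1, 1, 1, 0, 1 and 1. The 13 mitochondrially encoded genes had a median of 0.53 (-0.29 without QT7 replicate 1, 1.08 without QT7 replicate 2, 1.15 without WT replicate 1 and 0.13 without WT replicate 2) and no call by either tool, and QT7 replicate 1 was the highest library, with a sum of 14897 CPM against 4315 CPM in QT7 replicate 2 and 7816 and 4094 CPM in WT.

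By chromosome, calls ran from 3.13% of tested genes on chromosome 17 to 6.17% on chromosome 6 among the autosomes and X. Chromosome 6, which holds Tcf7l1, Nanog and Dppa3, had the lowest median log2 fold change of the autosomes and X, -0.12 over 811 genes. Relative to the WT mean, the median of its 488 genes averaging 2 or more log2 CPM was -0.13 and -0.14 in QT7, -0.12 and -0.13 in QT7L1, -0.06 and -0.07 in QKO, and -0.06 and 0.06 in WT. Both lines with a factor put back lay below the QKO and WT libraries on that chromosome, and the WT libraries differed from each other by a similar amount. On chromosome 8, 9 genes were higher and 33 lower, and on chromosome 2, 42 were higher and 17 lower.

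**Figure D5:**
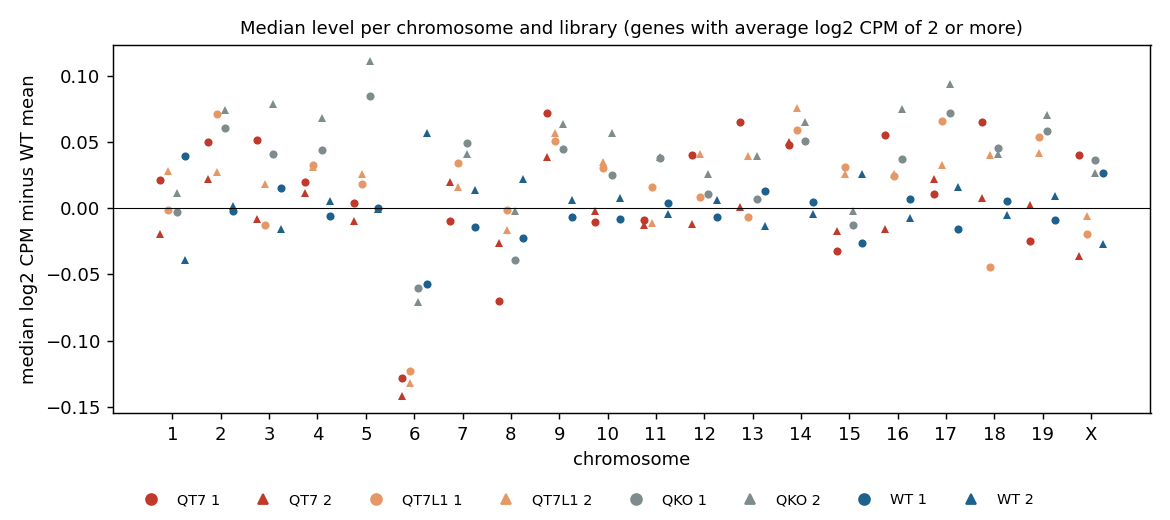
Median log2 CPM minus the WT mean for each autosome and X and each library, over genes averaging 2 or more log2 CPM, with 1 point per library of QT7, QT7L1, QKO and WT. On chromosome 6 the QT7 points at -0.13 and -0.14 and the QT7L1 points at -0.12 and -0.13 are the lowest of the plot.

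In the authors' deposited table for these groups, 1159 genes had an adjusted p under 0.05. Of these, 711 were called here as well, all in the same direction, which is 61.3% of the authors' calls and 93.2% of the 763.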

How the data were processed

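RNA from 8 libraries of mouse embryonic stem cells was sequenced. The tools named in the submitters' processing notes are bcl2fastq 1.8.4, STAR 2.4.0f1, HTSeq and DESeq2, and the build is mm10 (GRCm38). The sources used here do not give the HTSeq version, its strand setting or what was done with reads of several placements, so antisense, overlapping and near-identical genes are uncertain. The deposited files hold raw read counts for 47729 Ensembl identifiers, 47310 of them found in GENCODE M21. The authors' deposited table for WT and QT7 holds their log2 fold changes (WT over QT7), adjusted p-values, mean normalised signal and test score, and only its calls were compared.

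In R 4.3.3 with edgeR 4.0.16, counts were filtered with filterByExpr (16515 genes), scaled by TMM and fitted with 1 mean per group over the 8 libraries (robust quasi-likelihood, 4 residual degrees of freedom). Contrasts were tested on 2 sides with Benjamini-Hochberg adjustment over all tested genes. A check of the method used counts simulated for QT7 against WT over 16515 genes, from the mean levels and depths of these libraries. There, 78% of 2-fold and 89% of 3-fold changes were recovered, with 5 false calls. The simulation set 1 spread for all genes and no differences between clones. Its rates therefore do not carry over to these libraries. Depth was 31.57 to 43.36 in units of 1e+06 counts. Named by rule were the TCF/LEF genes and Axin2, and the 15 largest rises and falls among called genes averaging 2 or more log2 CPM, without overlap and with an established symbol. List members named were up to 8 called ones with the smallest adjusted p, plus uncalled ones given as values. The comparison, lists and rule were chosen with earlier results of these data known, so lists are described by counts and medians and have no test. Clones or replicates are the n, and whether the WT libraries came from separate cultures is not stated beyond their label, so p-values measure the spread between these libraries. Alternatives were other size factors, no filter, DESeq2 1.42.0, a replicate block, a fit of the compared libraries alone and leaving out each library. The values of 2 called genes are not reported here, although the counts include them.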

Additional observations from a re-analysis of the deposited data

How the results depend on the processing

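The count of 763 in QT7 against WT was 743 with size factors by relative log expression, 2203 with no filter on low counts, 1288 with DESeq2 and 117 in a fit of the 4 compared libraries, which has fewer residual degrees of freedom. Leaving out 1 library gave 52 to 2023 calls. QT7 against QKO, with 4449 calls, gave 1432 to 4355 when a library was left out. QT7 against QT7L1, with 1 call, gave 1030 with no filter, 236 with DESeq2, 20 in the fit of compared libraries and 0 to 1564 when a library was left out. Of 115 genes followed under 13 alternatives (1495 values), 0 reversals were found among the genes called with all libraries. Reversals were not counted for the uncalled Axin2 and Tcf7l2. For every called gene the QT7 and WT libraries did not overlap, so leaving out 1 library could hardly reverse it. The cause of the lost calls was not tested.

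With a replicate block, QT7 against WT gave 801 calls, 687 of them shared with the 763, and QT7 against QT7L1 gave 2. Of the 15 largest rises 10 were called with it (Dazl, Rec114, Tuba3a, Zfp264 and Rbm44 were not, 0.0511 to 0.122), and of the 15 largest falls 12 (Lemd1, Klhl13 and Nes were not, 0.0567 to 0.104). No label says that a replicate number marks a shared batch. The deviations of same-numbered libraries correlated over genes at 0.164 for QT7 and WT, 0.163 for QT7 and QT7L1 and -0.205 for QT7 and QKO. With 2 numbers a group this does not settle a pairing, and the numbers were treated as names only.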

Other observations

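Genes with the smallest p-values in the authors' deposited table, beside Lrrn2 and Nt5e described above, were chosen after their values were seen. Trh, the precursor of thyrotropin-releasing hormone, had 201 and 193 CPM in QT7 and 647 and 696 CPM in WT (-1.77 ± 0.17, edgeR adjusted p = 0.00163). Dnah8, a dynein heavy chain of sperm tails, had 189 and 170 CPM in QT7 and 62.6 and 56.5 CPM in WT (1.59 ± 0.11, edgeR adjusted p = 0.000640). Rpl10l, a ribosomal protein gene of germ cells related to Rpl10, had 111 and 76.2 CPM in QT7 and 24.7 and 28.4 CPM in WT (1.81 ± 0.17, edgeR adjusted p = 0.00163). The QT7 and WT libraries stood far apart in all 3 genes. The non-coding RNA Gm33027 had 14.7 and 14.4 CPM in QT7 and 2.29 and 2.81 CPM in WT (2.51 ± 0.20, edgeR adjusted p = 0.000960). In QKO, Trh had 230 and 194 CPM and Dnah8 110 and 127 CPM.

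Some genes were high in 1 QT7 clone. Beside Asz1, the Y-linked zinc finger gene Zfy1, which did not pass the filter, had 113 and 7 counts in QT7 and 7 and 10 counts in WT, while the Y-linked helicase gene Ddx3y had 50.9 and 14.2 CPM in QT7 and 49.2 and 63.2 CPM in WT.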
